A study of Mus musculus with 3 samples.

Results

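Cell cycle and quiescence genes were read in sorted mouse bone marrow cells marked by a GFP reporter that the nestin promoter drives. The list held 60 genes, and 56 of them had the 4 or more probesets needed for a gene value, out of 18865 genes measured in the same way. The members span DNA replication, G2 and mitosis, entry into S phase, the D cyclins with their kinases, the inhibitors of cyclin-dependent kinases (CDK), the pocket proteins with the DREAM complex, the p53 axis and 2 growth arrest-specific genes. They were chosen by name. The rule that named them also asked for a contrast of replication and mitosis genes with D cyclins, inhibitors and pocket proteins.

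The study hybridised 3 Affymetrix arrays with RNA of GFP-positive cells from C57BL/6 mice, freshly isolated from marrow and sorted by flow cytometry. All 3 form 1 group, with no control population, and the labels give no age, no treatment and no other allele. The sort rests on a promoter, so the cells are those in which the nestin promoter drove GFP, whatever their type. Nothing in the labels says whether the samples came from separate mice, and each p-value therefore reflects the spread over 3 samples that may be technical repeats.

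Marrow stroma around vessels is known to divide rarely in the adult. In a resting cell the pocket proteins bind E2F factors and, within the DREAM complex, keep the genes of replication and mitosis silent. Mitogens raise the D cyclins, whose kinases phosphorylate the pocket proteins and release E2F, and the CDK inhibitors oppose that step. Transcripts of mitosis genes peak in G2 and M phase, so in a bulk RNA sample a few cycling cells among many resting ones give a low level. Fewer cells of a type and less RNA per cell cannot be told apart in such a sample.

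The promoters of these genes carry short motifs that the literature ties to this control. The CHR (cell cycle genes homology region) is bound by DREAM and, in cycling cells, by the activating MuvB complexes. The E2F site is bound by E2F factors, and the CCAAT box by NF-Y. RefSeq promoter windows of assembly GRCm38.p6, from 250 bases before to 50 bases after each annotated start, were found for 49 of the 60 members, in 58 windows. CHR was searched as TTTGAA or TTCGAA, E2F as TTCCCGC or TTGGCGC, and also as TTCGCGC or TTGCCGC, and the CCAAT box as CCAAT, on both strands. E2F matches on opposite strands can share letters.

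A CHR match lay in 12 of 15 mitosis windows (80.0%), in 2 of 10 replication windows (20.0%) and in 19.2% of all 32851 windows. An E2F match lay in 3 of 15 mitosis windows (20.0%), in 8 of 10 replication windows (80.0%) and in 9.6% of all windows. CCAAT was found in 14 of 15 mitosis windows (93.3%), 9 of 10 replication windows and 37.4% of all windows. CHR and CCAAT stood together in 12 of the 15 mitosis windows (80.0%), against 7.5% of all windows. The 4 windows of the D cyclins and their kinases were those of Cdk4, Cdk6 and Ccnd3, and Ccnd1 and Ccnd2 had none. Of these 4 windows 0 held CHR and 0 held E2F, too few to set against the shares of all windows. Pocket protein and DREAM genes also had only 4 windows, of which 3 held CHR, in Lin54 and Rbl2, and 1 held E2F. Among 8 S-phase entry windows 2 held CHR and 4 held E2F, and among 9 inhibitor windows 1 held CHR and 2 held E2F. CHR was therefore not confined to the mitosis windows, nor E2F to the replication windows. A p53 response element, searched as a pair of half-sites up to 13 bases apart, matched 1 of the 58 member windows, that of Cdkn1a, and 24 of all 32851 windows. These matches describe letters in a window and say nothing of binding in these cells.

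Stretches of 4 promoters are shown, from 100 bases before to 30 bases after the annotated start. Bub1 and Ccnb2 stand for mitosis windows with CHR and CCAAT, Mcm6 for replication windows with E2F, and Cdkn1a for the inhibitors. Capitals mark matches that lie wholly within the stretch, of CHR and CCAAT in Bub1 and Ccnb2, of E2F and CCAAT in Mcm6, and in Cdkn1a of the p53 search pattern, both half-sites with the spacer between them. That match is a match of the pattern only. Marked with its spacer, it was not the site recalled from the literature. It was checked against no reference sequence and is not offered as a p53 site. The letters directly after it, tgacatgttc, miss the searched half-site at their first base only, and the search allowed no mismatch. A pair made of the last marked half-site and those letters was therefore not marked. Whether the recalled site lies across those letters was not checked. The stretches are chr2:127831830-127831959 on the minus strand for Bub1, chr9:70421525-70421654 on the minus strand for Ccnb2, chr1:128359676-128359805 on the minus strand for Mcm6 and chr17:29090879-29091008 on the plus strand for Cdkn1a.
Bub1: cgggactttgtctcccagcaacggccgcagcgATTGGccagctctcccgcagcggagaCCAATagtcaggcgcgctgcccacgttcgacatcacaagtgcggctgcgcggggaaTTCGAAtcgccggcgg
Ccnb2: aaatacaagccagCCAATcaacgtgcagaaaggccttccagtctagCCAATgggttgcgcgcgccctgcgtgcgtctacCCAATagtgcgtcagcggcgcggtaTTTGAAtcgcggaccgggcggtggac
Mcm6: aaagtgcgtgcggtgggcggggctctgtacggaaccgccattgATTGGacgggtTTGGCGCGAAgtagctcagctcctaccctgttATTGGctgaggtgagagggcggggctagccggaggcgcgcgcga
Cdkn1a: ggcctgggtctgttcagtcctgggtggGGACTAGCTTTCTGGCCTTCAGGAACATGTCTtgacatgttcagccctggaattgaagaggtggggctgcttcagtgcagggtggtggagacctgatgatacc

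The first CHR base of Bub1 stood at position 15 after the start, counted from 1, and that of Ccnb2 in the stretch at position 5. Ccnb2 held 3 CCAAT boxes in the stretch, with first bases 87, 54 and 21 bases before the start. In Mcm6 the capital run TTGGCGCGAA joins a pair of E2F matches on opposite strands. Cdkn1a held 0 matches of CHR, E2F or CCAAT in either of its RefSeq windows.

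Values below are log2 RMA levels, and each triple gives arrays 1, 2 and 3 in that order. A gene's level is the median over its probesets. With no second group, each gene was set against a threshold on the same array, the 95th percentile of 352 chemosensory receptor genes that marrow cells should lack. The thresholds were 5.40, 5.61 and 5.65. A gene was called above background where limma's one-sided test of its margin over the threshold gave a Benjamini-Hochberg adjusted p below 0.05 over all 18865 genes. Probes differ in affinity, so a higher level or margin in one gene than in another does not show more transcript. Genes named from the lists were picked by their margin over the threshold, which serves only to choose them. A gene below the threshold may still be transcribed at a low level.

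Of the 56 measured members 26 lay above background, against 51.0% of all genes, so the list as a whole sat near the background share. All 4 measured p53-axis genes passed, as did 5 of 6 pocket protein and DREAM genes and 4 of 5 D cyclin and kinase genes. The counts of 3 of 5 CDK inhibitors, 5 of 9 replication genes and 1 of 2 growth arrest-specific genes lay near the share of all genes. Of the mitosis genes 3 of 18 passed and of the S-phase entry genes 1 of 7. Against the higher threshold of 72 genes of other tissues, which called 41.5% of all genes, the mitosis count was 0 of 18 and the pocket protein and DREAM count 4 of 6, and the other counts kept their size.

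**Figure D1:**
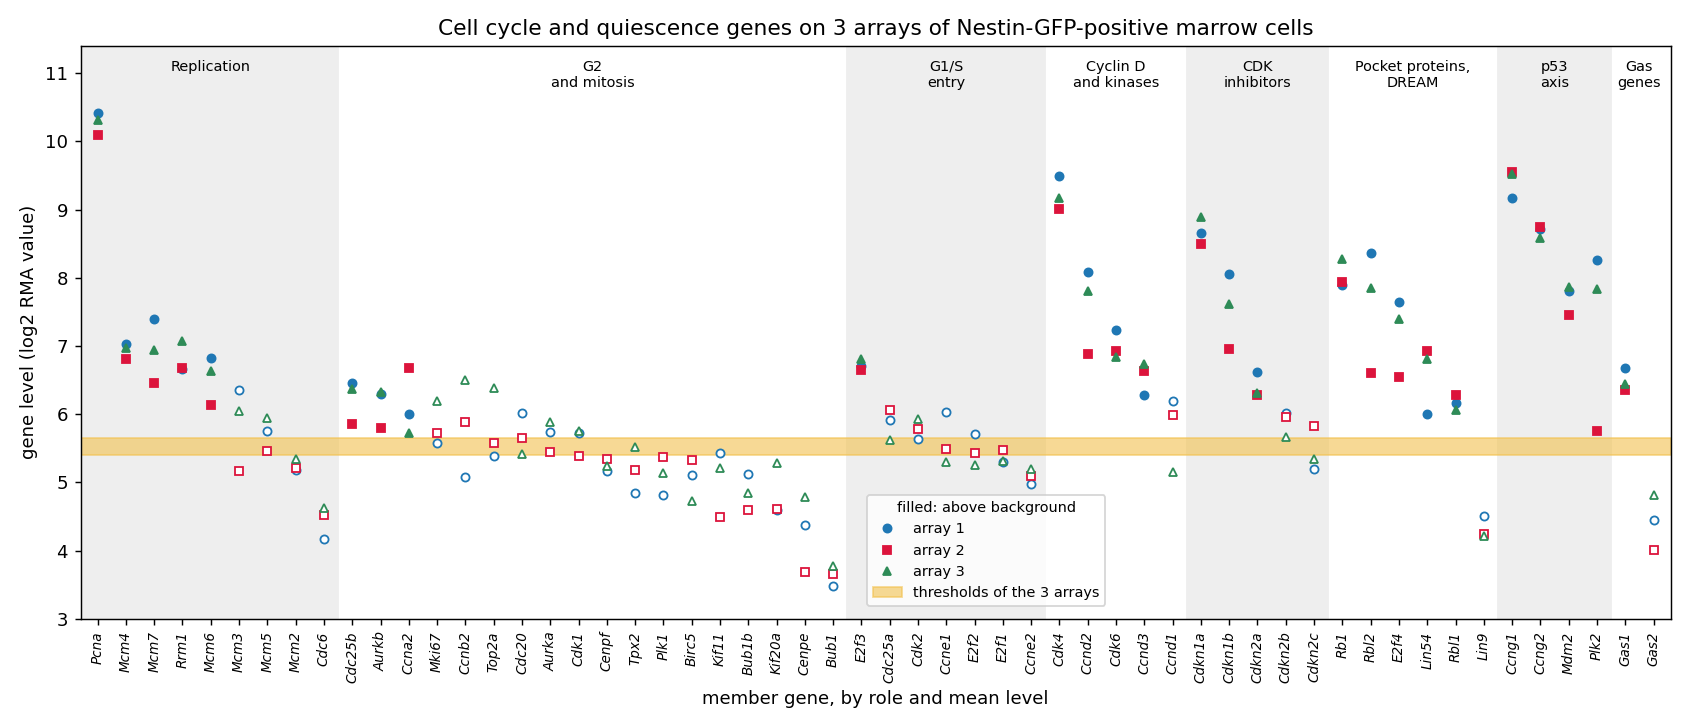
Log2 RMA level (vertical axis) of the 56 measured members (horizontal axis), grouped by role and ordered by mean level within a role for layout only. Points are single arrays, filled where the gene was called above background, and the band spans the thresholds of 5.40 to 5.65. Most mitosis and S-phase entry genes lie in, near or under the band, and the p53-axis genes and Cdk4 lie well above it.

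Of the replication genes 5 of 9 were called, 2 more exceeded the threshold on arrays 1 and 3 only, and 2 were under it on every array. Pcna, the sliding clamp of the replicative polymerases, read 10.41, 10.10 and 10.31. Its margin was 4.72 ± 0.19 (SE, n = 3), with an adjusted p of 3.67e-07 in limma's test. Here and below, SE is limma's moderated standard error, drawn toward a variance shared over genes. All 3 arrays agreed closely on the level of Pcna, with an SD of 0.16. Subunits of the MCM helicase, which unwinds DNA at the fork, were divided. Mcm4 read 7.03, 6.81 and 6.97, Mcm6 read 6.83, 6.13 and 6.63, and Mcm7 read 7.40, 6.46 and 6.94. These 3 subunits were above background on every array.

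The other helicase subunits were not called. Mcm2 read 5.18, 5.21 and 5.35, below the threshold on every array. Mcm3 read 6.36, 5.16 and 6.05, and Mcm5 read 5.76, 5.46 and 5.95, both below the threshold on array 2. In the fit without array 2, Mcm3 passed (adjusted p = 0.0301, limma). That fit took limma's prior degrees of freedom, the weight of the variance shared over genes, as infinite. Rrm1, the large subunit of ribonucleotide reductase, read 6.66, 6.67 and 7.07 and passed, whereas Cdc6, which loads the helicase at origins, read 4.17, 4.52 and 4.62 and stayed below the threshold on every array. Rrm2, the small reductase subunit that cells make in S phase, had 1 probeset and no gene value. That probeset read 5.07, 5.10 and 4.38.

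Mitosis genes were mostly undetected. Their median level was 5.27, 5.38 and 5.47 by array, below the threshold on each. Bub1, a kinase of the spindle checkpoint, read 3.48, 3.66 and 3.77. Cenpe, a kinetochore motor, read 4.38, 3.69 and 4.79, and Plk1, the polo kinase of mitotic entry, read 4.81, 5.37 and 5.14. None of these 3 reached the threshold on any array. The same held for Bub1b of the checkpoint, Kif20a of cytokinesis, Birc5 of the chromosomal passenger complex, the spindle factor Tpx2 and Cenpf of the kinetochore, whose mean levels ran between 4.83 and 5.25. Kif11, the motor that separates spindle poles, read 5.43, 4.49 and 5.21, a margin of -0.51.

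Several proliferation markers straddled the threshold. Mki67, the gene of the Ki-67 antigen, read 5.58, 5.72 and 6.19, above the threshold on each array but not called (adjusted p = 0.162, limma). Top2a, the topoisomerase that untangles sister chromatids, read 5.38, 5.58 and 6.39 (adjusted p = 0.281, limma). Ccnb2, a B-type cyclin of mitotic entry, read 5.08, 5.89 and 6.50 (adjusted p = 0.265, limma). All 3 were highest on array 3 and lowest on array 1. Cdk1, the mitotic kinase, read 5.73, 5.39 and 5.75, Aurka of the spindle poles read 5.74, 5.44 and 5.88, and Cdc20, the activator of the anaphase-promoting complex, read 6.02, 5.65 and 5.41. Their margins were between 0.07 and 0.14 and none passed. When probesets were averaged, Mki67 (adjusted p = 0.0171, limma) and Ccnb2 (adjusted p = 0.0112, limma) passed.

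The 3 mitosis genes called were Ccna2, Aurkb and Cdc25b. Ccna2, the A-type cyclin of S and G2 phase, read 6.00, 6.67 and 5.72 (margin 0.57 ± 0.23 SE, adjusted p = 0.0355, limma). Aurkb, the kinase of the chromosomal passenger complex, read 6.30, 5.80 and 6.33 (margin 0.59 ± 0.20 SE, adjusted p = 0.0216, limma). Cdc25b, the phosphatase that activates Cdk1, read 6.45, 5.86 and 6.37 (margin 0.67 ± 0.21 SE, adjusted p = 0.014, limma). Each lay above all 3 thresholds by a small margin. Without array 1 all 3 calls were lost (adjusted p = 0.112 for Ccna2, 0.1 for Aurkb and 0.075 for Cdc25b, limma), so the mitosis count became 0 of 18. Without array 3 Aurkb (adjusted p = 0.0875, limma) and Cdc25b (adjusted p = 0.0583, limma) were lost, and leaving out array 2 lost Ccna2 (adjusted p = 0.253, limma). Such fits rest on 2 arrays and on a prior estimated anew. The prior degrees of freedom were 3.742, infinite and 5.736 without arrays 1, 2 and 3, against 6 with all arrays. A call lost or gained in such a fit therefore need not mean a changed margin.

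Entry into S phase rests on cyclin E with Cdk2 and on the activating E2F factors. E2f3, one of these factors, read 6.70, 6.65 and 6.81 and was the only one of the 7 called (adjusted p = 0.000343, limma). Its sister factors were not called, with E2f1 at 5.30, 5.48 and 5.31 and E2f2 at 5.71, 5.43 and 5.26. Cyclin E was not called from either gene, since Ccne1 read 6.03, 5.49 and 5.30 and Ccne2 read 4.98, 5.10 and 5.20. Cdk2 read 5.64, 5.79 and 5.93, above each threshold but not called (adjusted p = 0.199, limma). Cdc25a, the phosphatase that activates Cdk2, read 5.91, 6.06 and 5.62 and lay below the threshold on array 3.

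The D cyclins and their kinases gave clear signals with the exception of Ccnd1. Cdk4 read 9.50, 9.01 and 9.17 and its paralog Cdk6 read 7.23, 6.92 and 6.84, both above background on every array. Ccnd2 read 8.09, 6.88 and 7.80, lowest on array 2 but 1.21 from its highest value there and still above the threshold. Ccnd3 read 6.28, 6.64 and 6.73 (adjusted p = 0.000802, limma), and a further 3 probesets that name it together with other genes were not used. Ccnd1, the D cyclin most often linked to mitogen response, read 6.20, 5.99 and 5.15 and was not called (adjusted p = 0.344, limma). It was above the threshold on arrays 1 and 2 and below it on array 3, and it passed with the mean over probesets (adjusted p = 0.00121, limma).

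Among the inhibitors the Cip/Kip members were well above background. Cdkn1a, a p53 target, read 8.66, 8.50 and 8.89 (margin 3.13 ± 0.19 SE, adjusted p = 1.61e-06, limma), with 6 probesets. Cdkn1b, a brake on G1 CDKs in resting cells, read 8.06, 6.96 and 7.61 (margin 1.99 ± 0.26 SE, adjusted p = 0.000124, limma), with 5 probesets. Both were above the threshold on every array and lowest on array 2. Of the INK4 inhibitors, which block Cdk4 and Cdk6, only Cdkn2a passed, at 6.62, 6.28 and 6.31 (adjusted p = 0.00352, limma). That locus encodes an INK4 protein and the unrelated Arf protein, and the gene value does not separate them. Cdkn2b read 6.01, 5.96 and 5.66 (adjusted p = 0.125, limma) and Cdkn2c read 5.19, 5.82 and 5.35. Cdkn2d had 3 probesets, too few for a gene value, with a median of 6.63, 6.68 and 6.49.

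The 3 pocket protein genes all passed. Rb1 read 7.89, 7.94 and 8.27 (margin 2.48 ± 0.18 SE, adjusted p = 4.5e-06, limma). Rbl2, the pocket protein of resting cells in DREAM, read 8.36, 6.61 and 7.85, above background on every array with a range of 1.75. Rbl1, the pocket protein made mainly in cycling cells, read 6.16, 6.28 and 6.06 (margin 0.61 ± 0.18 SE, adjusted p = 0.0112, limma). Rbl1 no longer passed without array 2 (adjusted p = 0.0593, limma) or against the other-tissue threshold (adjusted p = 0.115, limma).

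E2f4, the repressive E2F of DREAM, read 7.64, 6.55 and 7.39 and passed. Of the MuvB core subunits, Lin54, which binds the CHR, read 6.00, 6.93 and 6.81 and passed (adjusted p = 0.00151, limma). Lin9 read 4.51, 4.24 and 4.21, below the threshold on every array. The subunits of one complex therefore differed in whether the array detected their transcript.

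The p53-axis genes all lay above background. Mdm2, the ligase that degrades p53, read 7.81, 7.45 and 7.87. Ccng1, a cyclin induced by p53, read 9.17, 9.55 and 9.52 (adjusted p = 5.42e-07, limma), and Ccng2, a cyclin linked to cell cycle exit, read 8.72, 8.75 and 8.59. Ccng2 varied least of these, with an SD of 0.08. Plk2, a polo-like kinase induced by p53, read 8.26, 5.76 and 7.84 (adjusted p = 0.00549, limma), a range of 2.50, the widest of the 56 members. On array 2 it lay just above the threshold of 5.61, and without array 1 it no longer passed (adjusted p = 0.0734, limma). Trp53 had 0 probesets naming it alone, and so had Ccnb1.

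Of the growth arrest-specific genes, first found in serum-starved fibroblasts, Gas1 read 6.68, 6.35 and 6.44 and passed (adjusted p = 0.00188, limma). Gas2 read 4.45, 4.01 and 4.82 and did not reach the threshold on any array.

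Replication and mitosis members were then set beside D cyclin, inhibitor and pocket protein members. Of the 27 measured replication and mitosis genes 8 were called (29.63%), of the 11 D cyclin, inhibitor and pocket protein genes 8 (72.73%), and of all genes 51.0%. The replication and mitosis class thus lay under the share of all genes and the other class above it. Within the first class, mitosis lay under that share (3 of 18, 16.67%) and replication near it (5 of 9, 55.56%). In the other class the inhibitors (3 of 5, 60%) also lay near it. Median levels were 5.58, 5.44 and 5.75 in the replication and mitosis class, 6.62, 6.61 and 6.73 in the D cyclin, inhibitor and pocket protein class, and 6.07, 6.05 and 6.07 over all genes. These medians rest on different probes, whose affinities are the same on every array, so the repeat over arrays adds no support to their order. Median margins over the threshold were 0.14, 0.99 and 0.52 in the same order of classes.

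Counts on single arrays repeat the same genes and probesets, so they add no support to the contrast. In the replication and mitosis class 15, 11 and 15 of 27 genes exceeded the threshold of arrays 1, 2 and 3, and in the D cyclin, inhibitor and pocket protein class 10, 11 and 9 of 11 did, beside 67.4%, 61.9% and 61.3% of all genes. Against the other-tissue threshold, 5 of 27 genes of the replication and mitosis class and 7 of 11 of the other class were called. All 5 were replication genes. Without array 1 the replication and mitosis count was also 5 of 27. Classes of named genes are no sample of a population, and their probes differ, so the shares are a description with no test.

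**Figure D2:**
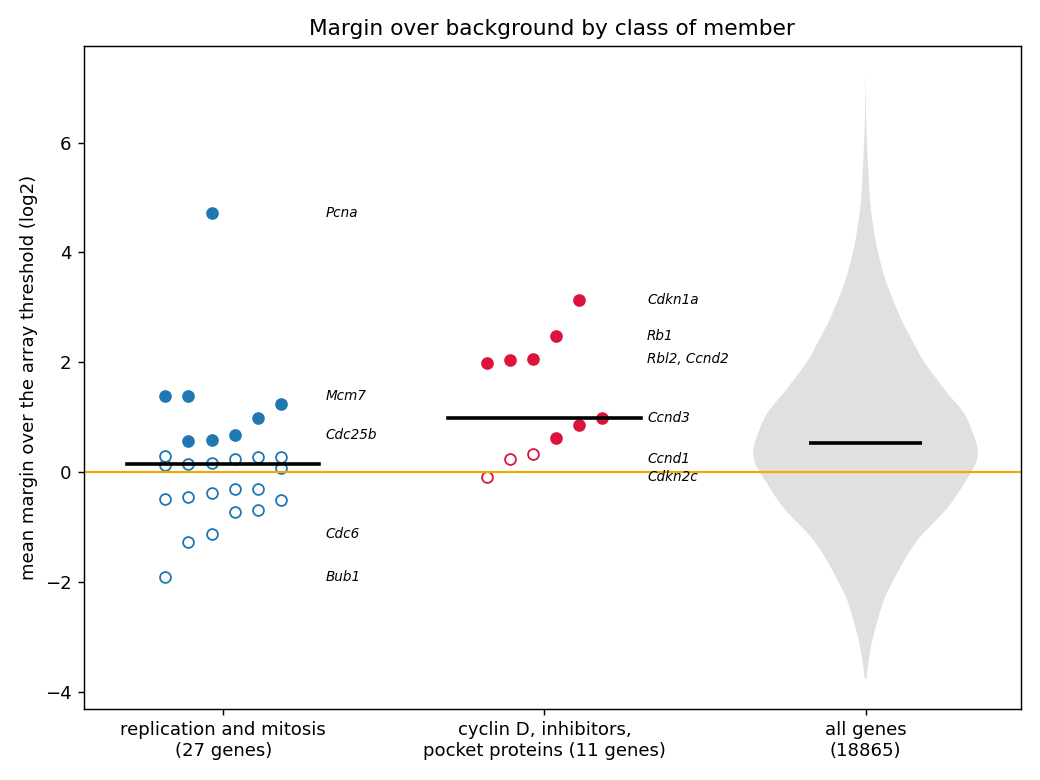
Mean margin over the array threshold (log2, vertical axis) for 27 replication and mitosis genes, 11 D cyclin, inhibitor and pocket protein genes and all 18865 genes (grey outline). Points are genes, filled where called above background, black bars are medians (0.14, 0.99 and 0.52) and the line at 0 is the threshold. Of the replication and mitosis genes 8 of 27 are filled, and of the D cyclin, inhibitor and pocket protein genes 8 of 11. The 8 of 27 are 5 of 9 replication genes and 3 of 18 mitosis genes.

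A gene value is a median over probesets that each read a short part of the transcript, so the share of probesets above background was examined as well. The probeset threshold, the 95th percentile of 2092 chemosensory probesets on the mean of the 3 arrays, was 7.19. The median gene of the whole array had 25.0% of its probesets above it. Mitosis members had 60 of 427 probesets above (14.1%), replication members 61 of 190 (32.1%) and S-phase entry members 24 of 121 (19.8%). D cyclins and kinases had 37 of 76 (48.7%), inhibitors 12 of 36 (33.3%), pocket protein and DREAM genes 62 of 137 (45.3%), p53-axis genes 34 of 58 (58.6%) and growth arrest-specific genes 1 of 32 (3.1%).

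In 12 of 56 members at least 50% of the probesets were above the probeset threshold. The share of all genes that reach 50% was not counted, so this count is a description only. A probeset under the threshold may still carry signal. Pcna had 14 of 15, Cdk4 9 of 11, Rb1 21 of 28 and Ccng2 9 of 12. Cdkn1a had 4 of 6, with the lowest probeset at 5.37. Among replication and mitosis genes, Mcm7 had 15 of 33 probesets above, Mki67 6 of 27, Top2a 6 of 50, Kif20a 7 of 26 and Bub1 0 of 30. A low gene median therefore went with some bright probesets in Kif20a, whereas in Bub1 every probeset was under the threshold. Gas1, called on its gene value, had only 1 of 10 probesets above.

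**Figure D3:**
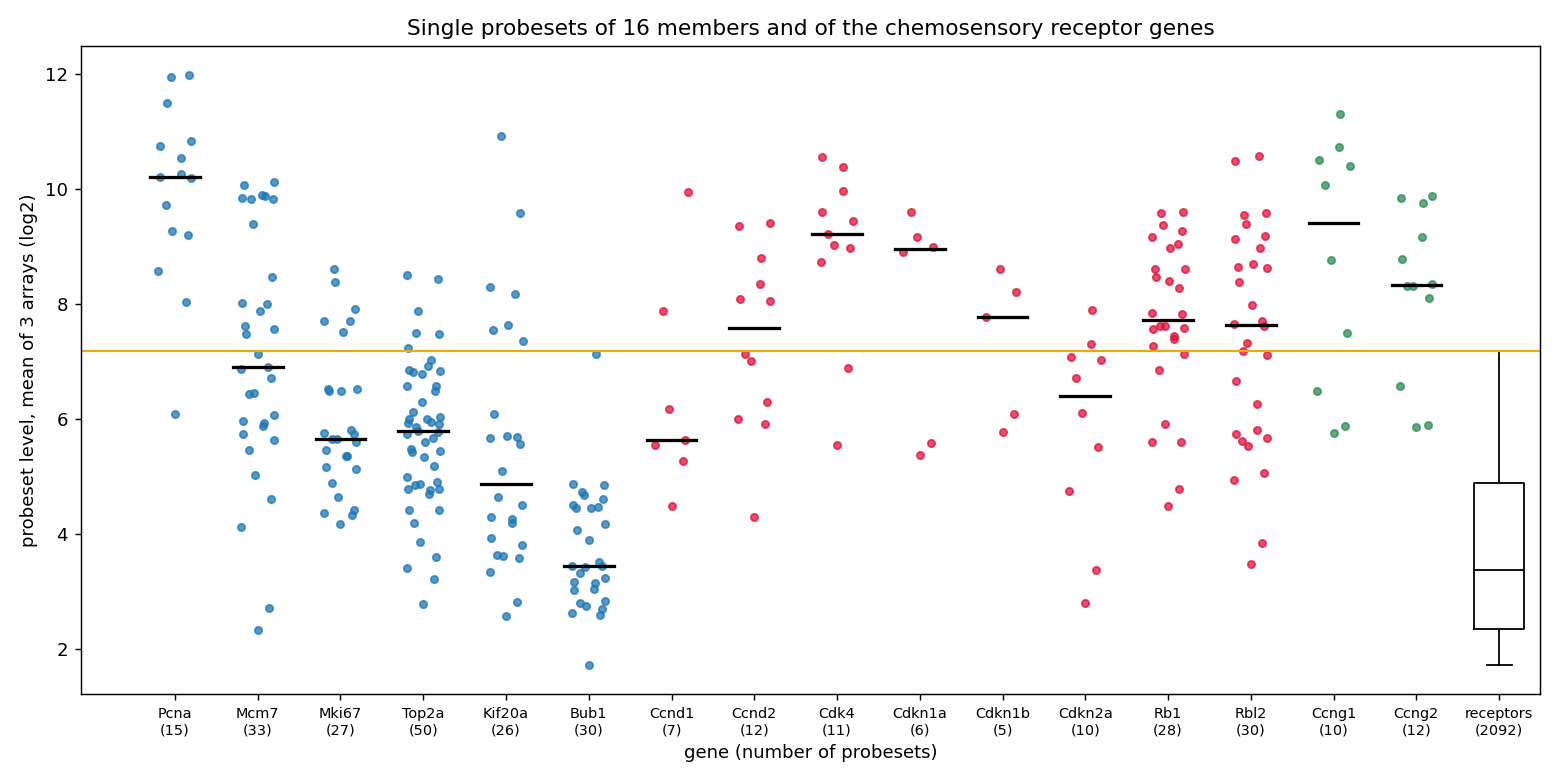
Level of single probesets, mean of 3 arrays (log2, vertical axis), for 16 members (horizontal axis, number of probesets in brackets) and for the 2092 chemosensory receptor probesets, drawn as a box of quartiles with whiskers at the 5th and the 95th percentile. Black bars are gene medians and the line is the probeset threshold of 7.19. Nearly all Pcna and Cdk4 probesets lie above the line and all Bub1 probesets lie under it.

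Other genes of the same pathways were counted from lists. Of 29 further replication genes 13 were called, among them Gins4 at 8.91, 9.83 and 8.24, Gins2 at 7.33, 7.52 and 7.73, both subunits of the replicative helicase, and the origin recognition subunit Orc6 at 7.35, 7.86 and 7.21. Dtl, an adaptor of a ubiquitin ligase, was under the threshold on every array, at 4.76, 4.52 and 4.18. Of 39 further mitosis genes 5 were called, with Pttg1, the gene of securin, at 9.35, 8.73 and 8.42, the kinesin Kif22 at 6.82, 6.71 and 6.32, and Incenp of the chromosomal passenger complex at 6.08, 6.19 and 6.18. Cenpk, a centromere protein, was not called, at 3.52, 3.97 and 3.54. The share called was thus 44.83% among further replication genes and 12.82% among further mitosis genes, against 51.0% of all genes.

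Genes listed as regulators of quiescence were called in 29 of 34 cases (85.29%), against 51.0% of all genes. The list is broad, with Id1, Id2, Id3, Egr1 and Rbbp4 also on it. It was drawn up with earlier results of these data known, so its share is a description and shows no quiescent state. Among them were Txnip, which restrains glucose uptake, at 11.09, 11.32 and 11.05, and the secreted ligand Gas6 at 11.16, 11.07 and 11.12. The noncoding RNA host gene Gas5 read 10.92, 11.00 and 10.97. Gas2l3 was under the threshold on every array, with a margin of -1.01. Of 27 p53 target genes 19 were called (70.37%), with Ei24 at 9.94, 9.16 and 9.94, the repressor Bcl6 at 9.27, 8.36 and 8.37 and the translesion polymerase Polk at 7.88, 8.20 and 7.96. Eda2r, a receptor of the tumour necrosis factor family, was under the threshold on every array, at 4.19, 3.98 and 4.14. Of 13 listed histone genes 2 were measured and both called, H2az1, a variant histone that is not tied to replication, at 11.15, 10.36 and 10.73, and the linker histone H1f4 at 6.56, 6.24 and 6.19.

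The 3 arrays differed in the members in a way that also appeared in cell type markers. Deviations from each gene's mean, with the array's median over all genes removed, had a median of -0.04, -0.16 and 0.19 over the mitosis members. Of these 18 genes 10 were highest on array 3, where 32.3% of all genes were highest. Replication members had a median deviation of 0.07, -0.18 and 0.14, and 6 of 9 were lowest on array 2, where 34.0% of all genes were lowest. A raised median on array 3 was not particular to mitosis members. It was 0.25 in pocket protein and DREAM genes, 0.21 in growth arrest-specific genes and 0.17 in p53-axis genes. In S-phase entry genes it was -0.02, in D cyclins and kinases -0.02 and in inhibitors -0.06. Members with the widest ranges, Plk2 and Rbl2, were also lowest on array 2.

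Perivascular stromal markers differed little between the arrays, and endothelial markers differed more. Of 14 perivascular stromal markers 13 were called (92.86%), against 51.0% of all genes. Cxcl12 read 11.77, 11.89 and 11.61 and Lepr read 11.39, 11.50 and 11.27. The median deviation of the 14 markers was 0.06, -0.05 and -0.09. Nes, whose promoter drives the reporter, read 5.97, 5.21 and 5.56 and was not called (adjusted p = 0.725, limma). Endothelial markers were called in 10 of 13 cases (76.92%), all 13 were lowest on array 2, and their median level was 7.68, 6.04 and 7.84. Their defining gene Cdh5 read 9.14, 6.05 and 9.58.

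Markers of several blood cell types were highest on array 3 more often than on the other arrays, lymphoid markers (2 of 10) being an exception. Neutrophil and progenitor markers were called in 8 of 10 cases, with a median level of 6.45, 6.41 and 6.92. Of these 10, 8 were highest on array 3, and Mpo of granulocyte precursors read 6.59, 8.28 and 9.69. Erythroid markers were called in 3 of 11 cases, with a median level of 5.63, 5.68 and 5.82, and Hbb-b1 read 10.49, 8.33 and 10.56. Pan-leukocyte markers were called in 3 of 12 cases, with a median level of 5.45, 5.38 and 5.78, and their defining gene Ptprc was under the threshold on every array, at 4.54, 4.37 and 5.14. Monocyte and macrophage markers were called in 4 of 10 cases, stem and progenitor markers in 4 of 9, lymphoid markers in 2 of 10 and megakaryocyte markers in 2 of 7. Of these blood cell lists only neutrophil and progenitor markers (80%) lay above the 51.0% of all genes called. Stem and progenitor (44.44%) and monocyte and macrophage markers (40%) lay near that share and the others under it. The part of these other cells in the member levels was not tested.

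**Figure D4:**
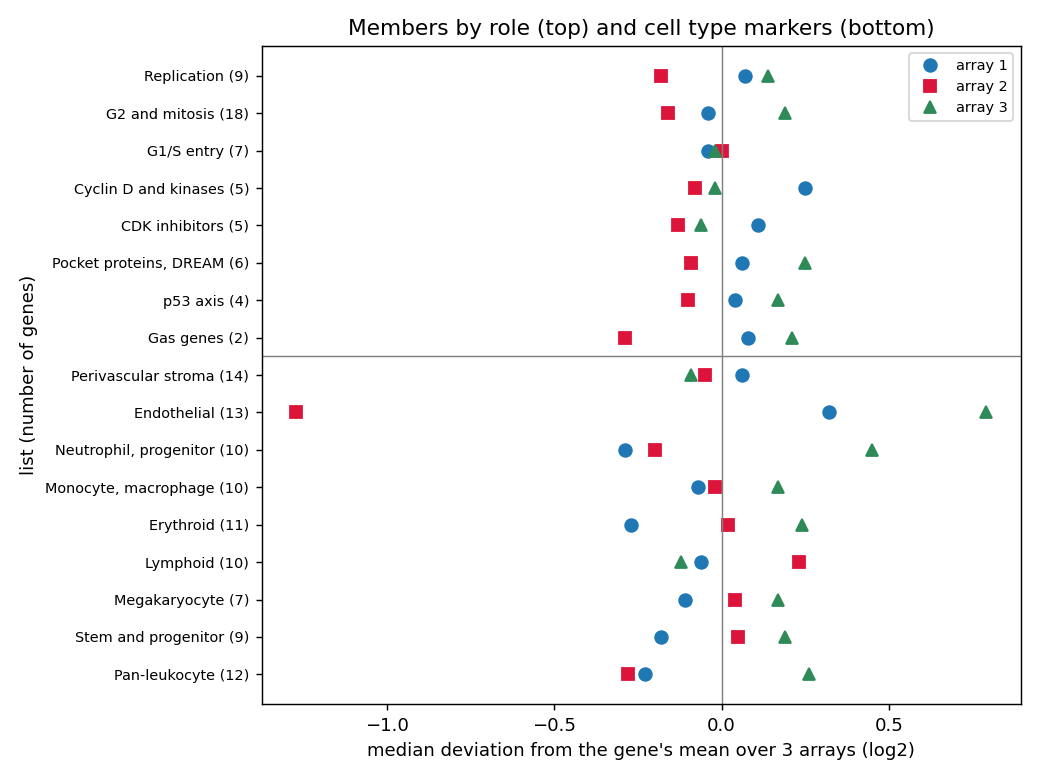
Median deviation from a gene's mean over the 3 arrays (log2, horizontal axis) for the members by role (upper rows) and for 9 lists of cell type markers (lower rows), with 1 point per array. Mitosis members (0.19) and pocket protein and DREAM members (0.25), among other roles, lie highest on array 3. Endothelial markers lie far lower on array 2 (-1.27) than on array 3 (0.79).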

How the data were processed

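The authors deposited log2 expression values per probeset, made with Affymetrix Expression Console 1.1 and RMA, per the submitters' processing notes; its settings and the annotation build are not stated. RNA was amplified by a kit made for very small inputs and labelled with biotin, per the labels' protocols. Each of 3 arrays held 1256831 probesets, of which 318760 had 1 gene symbol, 6684 several and 931387 none here. A RefSeq gene table of GRCm38.p6 updated 4227 older symbols. The number of arrays limits the precision.

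Gene values were medians over at least 4 probesets. The margin of each gene over the array's threshold was tested with limma 3.58.1 in R 4.3.3 (intercept only, one-sided), with Benjamini-Hochberg adjustment over 18865 genes. The fit was tested on simulated data. Of the 352 chemosensory genes 9 were called. Alternatives changed the threshold, the probeset rule, the summary, the variance model and the arrays used.

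Members and lists were chosen with earlier results of these data known. Promoter motifs and the printed stretches were chosen after the values were seen. The p53 pattern was searched last, after the Cdkn1a window had been read. It was first left out, because its match spans a spacer and was not the site recalled from the literature, and was then restored with its counts. All measured members could be named, along with up to 3 called genes of largest margin and the 1 of smallest from each pathway list, and defining cell markers.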

Additional observations from a re-analysis of the deposited data

How the results depend on the processing

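The threshold was the choice that mattered most. At the 99th percentile (6.89, 6.74 and 6.65 by array) 9 members were called in place of 26, and 20.8% of all genes (3924) in place of 51.0% (9624). By role this left replication 1, mitosis 0, S-phase entry 0, D cyclins and kinases 2, pocket proteins and DREAM 1 and growth arrest-specific genes 0, and 1 replication and mitosis gene against 4 of the other class. Margins became negative for Mcm6 (-0.23), Ccna2 (-0.63), Aurkb (-0.61), Cdc25b (-0.53), E2f3 (-0.04), Ccnd3 (-0.21), Cdkn2a (-0.36), Rbl1 (-0.59), Lin54 (-0.18) and Gas1 (-0.27). At the 90th percentile, where 63.8% of all genes and 39 members were called, mitosis had 9, S-phase entry 4 and the replication and mitosis class 16. The other-tissue threshold, with 41.5% of all genes called, gave mitosis 0 and the replication and mitosis class 5. With the mean over probesets, which called 55.0% of all genes, mitosis had 5 and S-phase entry 2. With at least 1 probeset per gene, which raised the threshold to 6.03, 6.12 and 6.01, the share of all genes called was 33.2% and the member count 19. Mitosis then had 0, pocket proteins and DREAM 3 and the replication and mitosis class 4 of 28. With at least 8 probesets (59.7% of all genes called) 1 of 2 inhibitors was called. Leaving out each array in turn gave 22 to 25 called members beside 46.1% to 48.3% of all genes, with mitosis between 0 and 2, the replication and mitosis class between 5 and 8 and the D cyclin, inhibitor and pocket protein class between 7 and 8. Under every alternative run, the share called was lower in the replication and mitosis class than in the other class. No paired analysis was possible because the samples form 1 group.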
